A study of Mus musculus with 6 samples.

Results

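Interferon-stimulated genes were followed in T cells cultured towards a follicular helper (Tfh) programme, with and without SAP, the signalling adaptor of the SLAM family of receptors. The genes were a fixed list of 31: 25 targets of type I interferon, 5 GTPases of the interferon gamma response (Gbp2, Gbp3, Irgm1, Igtp and Iigp1) and Irf1, a transcription factor of the gamma response. All 31 were measured, among 18193 genes in all, each read from the probe set with the highest mean among those annotated to that gene alone. No filter on low values was applied before the fit. Isg15 was not analysed here.

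The 6 samples were Affymetrix Mouse Genome 430 2.0 arrays, 3 of wild type (WT) and 3 of SAP-deficient cells. Both genotypes carried the OT-II transgenic T cell receptor, which recognises a peptide of ovalbumin, and both were naïve CD4+ CD44lo CD62L+ CD25- cells sorted from spleen and lymph nodes. Sorted cells were kept for 3.5 days with ovalbumin peptide, mitomycin C-treated splenocytes from which T cells had been removed, IL-6 at 100 ng/ml, IL-21 at 50 ng/ml and antibodies that neutralise interferon gamma, IL-12, IL-4 and TGF-β. The splenocytes were part of the culture, so RNA of B cells and antigen-presenting cells could enter the arrays. The labels leave out which Sh2d1a allele was used, the age of the mice and whether animals were pooled.

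Type I interferons signal through the receptor chains Ifnar1 and Ifnar2 and the kinases Jak1 and Tyk2 to a complex that holds Stat2 and Irf9 and binds the interferon-stimulated response element (ISRE). Interferon gamma signals through Ifngr1, Ifngr2, Jak1 and Jak2 to the gamma-activated site (GAS) of its target genes and induces Irf1, which in turn binds ISRE-like sequence. Many targets answer to both cytokines. In T cells these genes include sensors of foreign nucleic acid, antiviral effectors, feedback inhibitors and the GTPases that attack the vacuoles of intracellular pathogens.

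Levels are the deposited log2 values, so a difference of 1 is a doubling, and a difference between genotypes is SAP-deficient minus WT. The medians of all probe sets lay between 5.73 and 5.76 on the 6 arrays. Sh2d1a, the gene that encodes SAP, was at 9.50, 8.52 and 9.39 in WT arrays 1 to 3 and at 5.47, 4.10 and 4.92 in SAP-deficient arrays 1 to 3. Its change was -4.31 (limma, adjusted p = 0.0501 with genotype alone), and the groups did not overlap. The 9 measured T cell markers were all between 9.44 and 13.03. The labels pair no arrays and name no mouse or culture behind a replicate, so every p-value with genotype alone covers only array-to-array spread. Over 44827 probe sets outside the interferon lists, however, an array minus its genotype mean correlated with the same-numbered array of the other genotype at 0.52, 0.73 and 0.59 (across probe sets, not samples), against at most -0.10 with opposite-genotype arrays of another number. Deviations from a genotype mean sum to 0, so the negative values partly follow from the positive ones by arithmetic. Of the possible pairings, the one with the highest summed correlation was taken, and it joined the same-numbered arrays. Same-numbered arrays are therefore called pairs 1, 2 and 3 here, a match made from the data and not from the labels. P-values with these pairs as a block cover only the array spread left within pairs, and they depend on that match.

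Promoters of the genes the results turn on are shown first. RefSeq windows (GRCm38.p6, 250 bases before to 50 after each start) were found for 23 of the 31 genes. They were not found for Mx1, Mx2, Zbp1, Iigp1, Parp14, Rtp4, Oas2 and Usp18. An ISRE, searched as GAAANNGAAA or TTTCNNTTTC, stood in the windows of 15 of the 23 genes (16 of 30 windows, 53.3%), against 3.44% of all 32851 windows. It was found for 11 of 18 type I targets and all 4 GTPases with a window. A GAS, searched as TTCNNNGAA, which reads the same on both strands, stood in 6 of the 23 genes (20% of windows), against 8.3% of all windows. These matches are letters only and show no binding. The 250 bases before the start follow, in lower case with the motif in capitals, for 3 antiviral genes, 4 GTPases and Irf1:

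Ifit1, chr19:34640639-34640888 (+ strand): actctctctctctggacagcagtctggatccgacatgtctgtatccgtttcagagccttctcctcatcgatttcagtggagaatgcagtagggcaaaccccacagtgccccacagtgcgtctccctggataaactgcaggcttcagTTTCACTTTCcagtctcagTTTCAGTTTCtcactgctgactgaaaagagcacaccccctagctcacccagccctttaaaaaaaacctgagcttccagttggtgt

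Rsad2, chr12:26456453-26456702 (- strand): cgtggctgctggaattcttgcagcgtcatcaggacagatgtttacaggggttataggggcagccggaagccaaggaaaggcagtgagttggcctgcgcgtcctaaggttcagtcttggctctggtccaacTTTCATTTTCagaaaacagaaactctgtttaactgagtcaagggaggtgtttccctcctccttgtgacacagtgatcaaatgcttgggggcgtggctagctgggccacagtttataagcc

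Isg20, chr7:78913174-78913423 (+ strand): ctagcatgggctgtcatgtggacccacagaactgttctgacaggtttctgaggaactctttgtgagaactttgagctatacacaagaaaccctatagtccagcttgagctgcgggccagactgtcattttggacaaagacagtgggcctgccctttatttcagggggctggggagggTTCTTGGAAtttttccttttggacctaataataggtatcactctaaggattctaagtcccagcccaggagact

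Irgm1, chr11:48871421-48871670 (- strand): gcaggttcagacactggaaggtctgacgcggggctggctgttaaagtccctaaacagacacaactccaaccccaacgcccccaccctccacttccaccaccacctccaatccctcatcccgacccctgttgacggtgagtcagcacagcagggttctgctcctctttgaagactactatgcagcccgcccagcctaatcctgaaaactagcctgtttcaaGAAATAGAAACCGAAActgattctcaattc

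Igtp, chr11:58199306-58199555 (+ strand): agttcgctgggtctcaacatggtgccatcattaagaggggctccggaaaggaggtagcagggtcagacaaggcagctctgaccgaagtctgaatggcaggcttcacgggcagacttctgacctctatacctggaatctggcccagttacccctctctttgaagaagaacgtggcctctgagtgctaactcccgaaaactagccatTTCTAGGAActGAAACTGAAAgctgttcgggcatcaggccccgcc

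Gbp2, chr3:142620413-142620662 (+ strand): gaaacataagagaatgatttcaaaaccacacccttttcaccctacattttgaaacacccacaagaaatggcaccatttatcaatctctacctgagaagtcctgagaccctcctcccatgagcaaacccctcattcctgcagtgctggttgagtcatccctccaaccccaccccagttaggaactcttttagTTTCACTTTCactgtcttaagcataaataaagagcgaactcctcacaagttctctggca

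Gbp3, chr3:142559794-142560043 (+ strand): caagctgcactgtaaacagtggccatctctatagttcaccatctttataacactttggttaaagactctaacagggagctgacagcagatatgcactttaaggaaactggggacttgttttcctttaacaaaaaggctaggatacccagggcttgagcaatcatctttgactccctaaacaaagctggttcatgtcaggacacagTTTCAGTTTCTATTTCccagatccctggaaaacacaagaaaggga

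Irf1, chr11:53769764-53770013 (+ strand): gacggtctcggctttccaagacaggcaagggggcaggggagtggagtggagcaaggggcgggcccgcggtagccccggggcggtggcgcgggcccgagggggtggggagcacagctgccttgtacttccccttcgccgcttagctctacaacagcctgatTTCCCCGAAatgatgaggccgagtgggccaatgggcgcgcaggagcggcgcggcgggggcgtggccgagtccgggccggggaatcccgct

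Overlapping ISRE matches merge into a single stretch of capitals in Irgm1 and Gbp3, Ifit1 holds a pair of separate ISREs, and Igtp holds a GAS followed by an ISRE. In Isg20 and Irf1 the capitals mark a GAS, and no ISRE was found in their windows. Isg20 has 3 start sites in the table, Gbp3 and Irf1 have 2 each, and the window with a match is printed.

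Between genotypes, the interferon-stimulated genes had a median slightly below 0, and no single gene changed beyond the spread between arrays. With genotype alone in the model, limma called 0 of the 31 at an adjusted p under 0.05 (0% of all genes were called) and 0 at an unadjusted p under 0.05 (1.31% of all genes). The adjusted p was 1 for each of the 31. On average 22 were lower and 9 higher in SAP-deficient cells, where 46.7% of all genes were lower. The median change was -0.06 over the 31, -0.07 over the type I targets (18 lower, 7 higher), -0.03 over the GTPases (4 lower, 1 higher) and 0.01 over all genes. With single arrays left out, the median over the 31 ran from -0.23 (without WT array 1) to 0.09 (without SAP-deficient array 1), removals that unbalance the pairs. With a whole pair left out, the median was -0.08, -0.05 and -0.01 without pairs 1, 2 and 3. The groups did not overlap for 1 of 31, Rsad2, against 5.32% of all genes. In bulk RNA of a mixed culture, fewer cells of a type and less RNA per cell cannot be told apart.

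With the pairs as a replicate block, limma again called 0 of 31 (0.00550% of all genes, which is Sh2d1a alone). At an unadjusted p under 0.05 the block gave 6 of 31, higher Isg20 and Ifit2 and lower Irf9, Rsad2, Rtp4 and Iigp1, against 6.10% of all genes. In all 3 pairs, 6 genes were lower in SAP-deficient cells (Ifit1, Oasl2, Rsad2, Stat2, Rtp4 and Iigp1), against 13.1% of all genes. This holds for the probe sets used: no further probe set of Rsad2, Stat2, Rtp4 or Iigp1 was lower in all 3 pairs. Isg20, Ifit2 and Oasl1 were higher in all 3 pairs, against 15.6% of all genes.

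**Figure D1:**
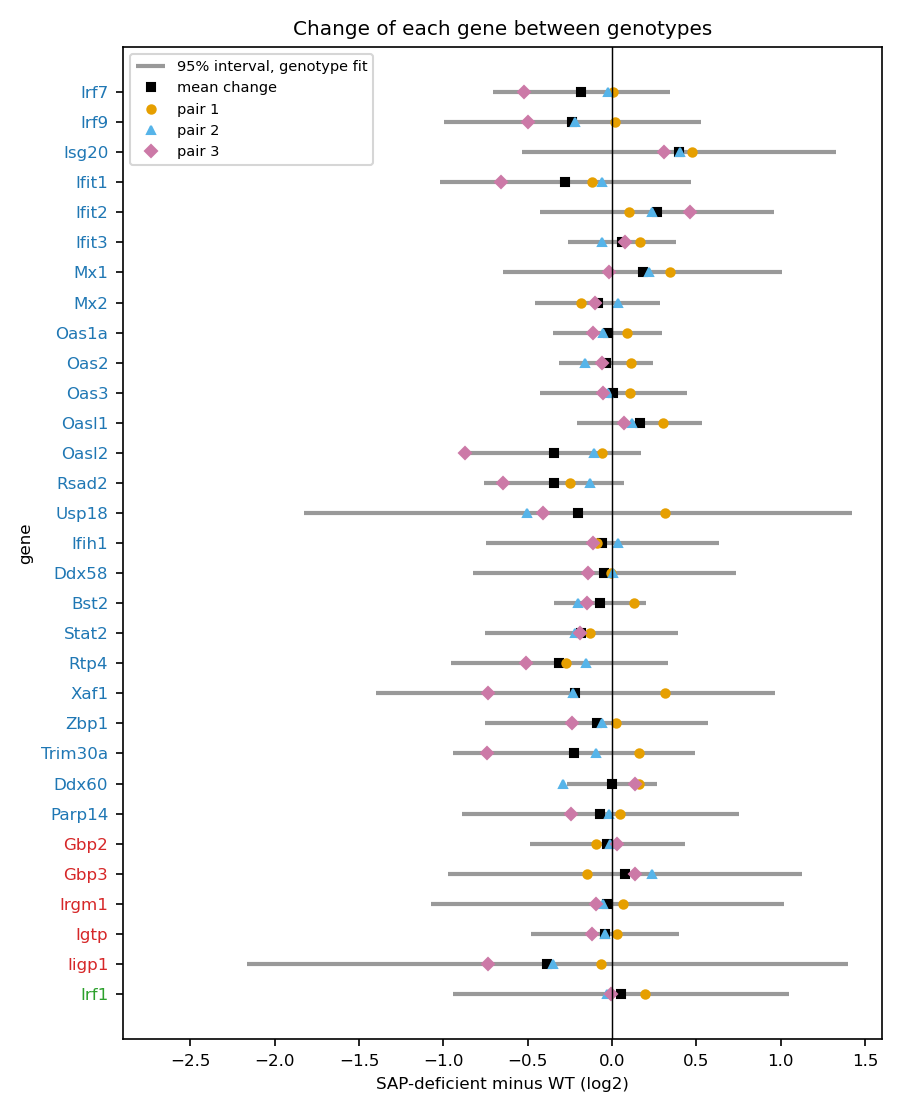
Change of each of the 31 genes between genotypes, SAP-deficient minus WT in log2 units on the horizontal axis and genes on the vertical axis; squares are mean changes, grey lines their 95% intervals from limma with genotype alone, and coloured points the differences within pairs 1, 2 and 3. Every grey line crosses 0, and the points of pair 3 lie furthest left for Oasl2, Trim30a, Iigp1 and Xaf1.

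Isg20, an exonuclease that degrades single-stranded RNA, had the largest positive difference in value. It was at 10.51, 9.76 and 11.18 in WT arrays 1 to 3 and at 10.99, 10.17 and 11.49 in SAP-deficient arrays 1 to 3. The groups overlapped, but in each pair the SAP-deficient array was the higher, by 0.48, 0.40 and 0.31. The change was 0.40 ± 0.40 (SE; 95% interval -0.54 to 1.33; limma, adjusted p = 1) with genotype alone. With the replicate block the interval narrowed to 0.27 to 0.52 (limma, adjusted p = 0.116). Without pair 3, the block gave 0.44 ± 0.06 and called the gene (limma, adjusted p = 0.00801), in a fit that called 0.198% of all genes.

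Rsad2 encodes viperin, an enzyme that makes a chain-terminating nucleotide. Its level was 6.42, 6.39 and 6.997 in WT arrays 1 to 3 and 6.17, 6.26 and 6.35 in SAP-deficient arrays 1 to 3. All SAP-deficient arrays lay below all WT arrays, the highest SAP-deficient value by a narrow margin. The change was -0.34 ± 0.18 (SE; 95% interval -0.76 to 0.07), and the within-pair differences were -0.25, -0.13 and -0.64. With the block, the interval was -0.61 to -0.08 (limma, adjusted p = 0.754). The other Rsad2 probe sets were dimmer and also lower on average, by -0.21 and -0.15.

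Among the transcription factors, Irf9 and Stat2, partners in the complex activated by type I interferon, and Irf7, the factor that amplifies interferon production, were lower on average. Irf9 was at 8.11, 9.28 and 8.90 in WT arrays 1 to 3 and at 8.13, 9.06 and 8.40 in SAP-deficient arrays 1 to 3, a change of -0.23 ± 0.33 (SE). Stat2 was at 6.03, 6.70 and 5.98 in WT and at 5.90, 6.48 and 5.78 in SAP-deficient arrays, a change of -0.18 ± 0.25. The second Stat2 probe set, at 5.55 to 6.65, gave -0.02 ± 0.34. In pair 1 it was higher in the SAP-deficient array, at 5.81 against 5.76. In both genes the order of the arrays by number was the same in either genotype, and the groups overlapped. Irf7 was at 6.32, 6.71 and 7.21 in WT and at 6.33, 6.68 and 6.69 in SAP-deficient arrays, so that its change of -0.18 ± 0.23 came from pair 3 (-0.52), with 0.003 and -0.02 in pairs 1 and 2. Irf1 was at 8.94, 10.33 and 9.06 in WT and at 9.14, 10.30 and 9.05 in SAP-deficient arrays, a change of 0.05 ± 0.43. Array number 2 of each genotype stood more than 1 log2 unit above the others for Irf1, while the genotypes lay within 0.20 of each other in every pair.

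The sensors of nucleic acid stayed close between genotypes. Ifih1 encodes MDA5, a sensor of long double-stranded RNA. It was at 10.85, 10.45 and 11.52 in WT and at 10.75, 10.48 and 11.40 in SAP-deficient arrays, a change of -0.06 ± 0.30 (SE). Ddx58 encodes RIG-I, a sensor of RNA ends, and was at 6.61, 7.63 and 6.84 in WT and at 6.61, 7.64 and 6.70 in SAP-deficient arrays, a change of -0.05 ± 0.34. Zbp1, a sensor of Z-form nucleic acid, was at 7.91, 8.40 and 8.95 in WT and at 7.93, 8.34 and 8.71 in SAP-deficient arrays, a change of -0.09 ± 0.29. For all 3 sensors the groups overlapped, and for Ifih1 and Zbp1 same-numbered arrays stood closer than any arrays of the same genotype. Ddx60, a helicase linked to RNA sensing, was at 3.12 to 3.48, under the median probe set, with a change of 0.001 ± 0.12.

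The Ifit genes, whose proteins bind foreign RNA and block its translation, went separate ways. Ifit1 was under the median probe set, at 4.03, 5.01 and 4.94 in WT and at 3.91, 4.95 and 4.29 in SAP-deficient arrays. It was lower in every pair, with a change of -0.28 ± 0.32 (SE). That change rested mostly on pair 3, where the difference was -0.66 against -0.12 and -0.06 in pairs 1 and 2. Ifit2 was at 6.92, 7.51 and 6.48 in WT and at 7.02, 7.75 and 6.94 in SAP-deficient arrays, higher in every pair with a change of 0.27 ± 0.30. Ifit3 was at 5.09, 5.51 and 5.16 in WT and at 5.26, 5.45 and 5.23 in SAP-deficient arrays, a change of 0.06 ± 0.14. The 3 genes lie in a cluster on chromosome 19, and neither direction passed the test with genotype alone.

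The Mx genes encode dynamin-like GTPases that trap viral particles, and the Oas genes make the signal that activates RNase L. None of them was called between genotypes. Mx1 was at 4.93, 5.93 and 4.95 in WT and at 5.27, 6.15 and 4.93 in SAP-deficient arrays, a change of 0.18 ± 0.36 (SE). Mx2 lay between 5.06 and 5.61, with a change of -0.08 ± 0.16. Oas1a, Oas2 and Oas3 differed by -0.03, -0.04 and 0.01, each with an SE of 0.12 to 0.19. Oasl1, which restrains translation of Irf7, was at 4.34, 4.64 and 4.91 in WT and at 4.65, 4.76 and 4.98 in SAP-deficient arrays. It was higher in each pair, by 0.30, 0.12 and 0.07, with a change of 0.16 ± 0.16. Its paralogue Oasl2 was dim, at 3.49, 3.79 and 4.46 in WT and at 3.43, 3.69 and 3.59 in SAP-deficient arrays. The Oasl2 change of -0.35 ± 0.22 rested mostly on pair 3, where the difference was -0.87 against -0.06 and -0.11 in pairs 1 and 2.

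Among the other type I targets, Xaf1, which promotes apoptosis, was at 6.84, 8.62 and 8.70 in WT and at 7.15, 8.38 and 7.97 in SAP-deficient arrays, a change of -0.22 ± 0.51 (SE). Trim30a, a ubiquitin ligase of the TRIM family, was at 9.11, 10.14 and 9.88 in WT and at 9.27, 10.05 and 9.14 in SAP-deficient arrays, a change of -0.23 ± 0.31. Both were higher in SAP-deficient cells in pair 1 (0.31 and 0.16) and lower in pair 3 (-0.73 and -0.74). Rtp4, a receptor chaperone that also inhibits flaviviruses, was at 4.67, 4.63 and 5.57 in WT and at 4.40, 4.47 and 5.07 in SAP-deficient arrays, a change of -0.31 ± 0.28. Its second, dimmer probe set ran the other way, with a change of 0.36 ± 0.09 over levels of 3.26 to 3.76, so the probe sets disagree on the direction. Parp14, an ADP-ribosyltransferase, was at 7.20, 8.36 and 7.68 in WT and at 7.25, 8.35 and 7.44 in SAP-deficient arrays, a change of -0.07 ± 0.36. Bst2, or tetherin, which holds budding virions at the cell surface, was the steadiest of the 31 between pairs and stayed between 8.996 and 9.29 on every array, with a change of -0.07 ± 0.12.

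Usp18, the protease that removes Isg15 from proteins and shuts off signalling at Ifnar2, was at 6.05, 6.90 and 8.65 in WT and at 6.36, 6.40 and 8.24 in SAP-deficient arrays. Array 3 of both genotypes was far above the others, and the change of -0.20 ± 0.70 (SE) was small beside that step. Within pairs the difference was 0.31, -0.50 and -0.41.

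The GTPases lay close between genotypes, except Iigp1. Gbp2, a guanylate-binding protein that coats pathogen vacuoles, was at 12.57, 12.39 and 13.01 in WT and at 12.48, 12.38 and 13.04 in SAP-deficient arrays. Its change was -0.03 ± 0.20 (SE). This value comes from a probe set of the _x_at type, which may also bind related transcripts, and the other Gbp2 probe set gave 0.02 ± 0.24. Gbp3, its neighbour on chromosome 3, was at 9.12, 8.13 and 9.71 in WT and at 8.97, 8.37 and 9.85 in SAP-deficient arrays, a change of 0.08 ± 0.45.

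The immunity-related GTPases Irgm1, a regulator that protects host membranes, and Igtp, also known as Irgm3, are both on chromosome 11. Irgm1 was at 7.70, 9.29 and 8.53 in WT and at 7.77, 9.24 and 8.44 in SAP-deficient arrays, a change of -0.03 ± 0.45 (SE). Igtp was at 10.62, 11.10 and 11.28 in WT and at 10.65, 11.06 and 11.16 in SAP-deficient arrays, a change of -0.04 ± 0.19. Both genes kept the same order of arrays in either genotype, with array 1 the lowest. Iigp1, an effector GTPase that disrupts the vacuole, was at 4.47, 7.19 and 5.63 in WT and at 4.40, 6.84 and 4.90 in SAP-deficient arrays. It was lower in SAP-deficient cells in every pair, by -0.07, -0.35 and -0.74, with a change of -0.38 ± 0.77 (95% interval -2.17 to 1.40). With the replicate block the interval was -0.68 to -0.09 (limma, adjusted p = 0.754). The gene's second, dimmer probe set gave -0.09 ± 0.58. That probe set was at 4.33, 6.54 and 4.74 in WT and at 4.85, 5.97 and 4.52 in SAP-deficient arrays, so higher in pair 1.

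The larger negative differences sat in pair 3. The type I targets had a median within-pair difference of 0.09 in pair 1, -0.06 in pair 2 and -0.15 in pair 3, and the GTPases had -0.07, -0.04 and -0.10. Over all 31 genes, 11 were lower in pair 1, 23 in pair 2 and 24 in pair 3, against 45.0%, 53.3% and 47.7% of all genes. Differences below -0.5 were found for 8 of the 31 in pair 3 (Irf7, Ifit1, Oasl2, Rsad2, Rtp4, Xaf1, Trim30a and Iigp1), against 1.75% of all genes. There was 1 such gene in pair 2, Usp18, against 0.275% of all genes, and none in pair 1, against 0.709%. No member was higher by over 0.5 in any pair at the probe set used. On its second probe set, Iigp1 was at 4.33 in WT array 1 and at 4.85 in SAP-deficient array 1. This limit of 0.5 was chosen after the values were seen.

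MHC class II genes and most B cell markers, which the splenocytes could bring, also had a lower SAP-deficient than WT level in pair 3. In pair 3, all 8 MHC class II genes were lower in the SAP-deficient array, with a median difference of -0.61, against -0.03 and -0.06 in pairs 1 and 2. These 8 include Ciita, which is also on the interferon signalling list given below, so the lists are not separate. Of 11 B cell markers, 9 were lower in pair 3 (median -0.24, against -0.09 and -0.04), from -0.88 for Cr2 to -0.17 for Cd22. The other 2 were Ighm, at 9.98 in the WT and 9.99 in the SAP-deficient array, and Ms4a1, at 5.10 and 5.12. The Cr2 difference came from WT array 3, at 5.64, with every other array between 4.71 and 4.76. By their mean level, Cr2, Fcer2a, Pax5, Ms4a1 and Blk were under the median probe set. The 14 macrophage and dendritic cell markers had medians of 0.01, -0.12 and -0.09 in pairs 1 to 3, with 8 of 14 lower in pair 3. The 8 plasmacytoid dendritic cell markers, which include Bst2, had 0.08, -0.08 and -0.12. The 7 markers of NK and CD8 T cells, the 7 of neutrophils and the 9 of T cells had medians of 0.07, -0.24 and 0.01 in pair 3. The summed log2 level of the B cell list was 69.8, 67.1 and 68.8 in WT and 68.1, 66.4 and 64.6 in SAP-deficient arrays. That of the MHC class II list was 61.3, 59.3 and 61.6 in WT and 60.7, 58.9 and 57.3 in SAP-deficient arrays, and both sums were lowest in SAP-deficient array 3. Of the 8 interferon-stimulated genes named above for pair 3, only Trim30a had its lowest SAP-deficient level on array 3 (9.14). All 8 had their lowest pair mean in pair 1, so this comparison cannot separate array 3 from the step between pairs. On average, all 11 B cell and all 8 MHC class II genes were lower in SAP-deficient cells. Their part in the differences of the interferon-stimulated genes was not tested.

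**Figure D2:**
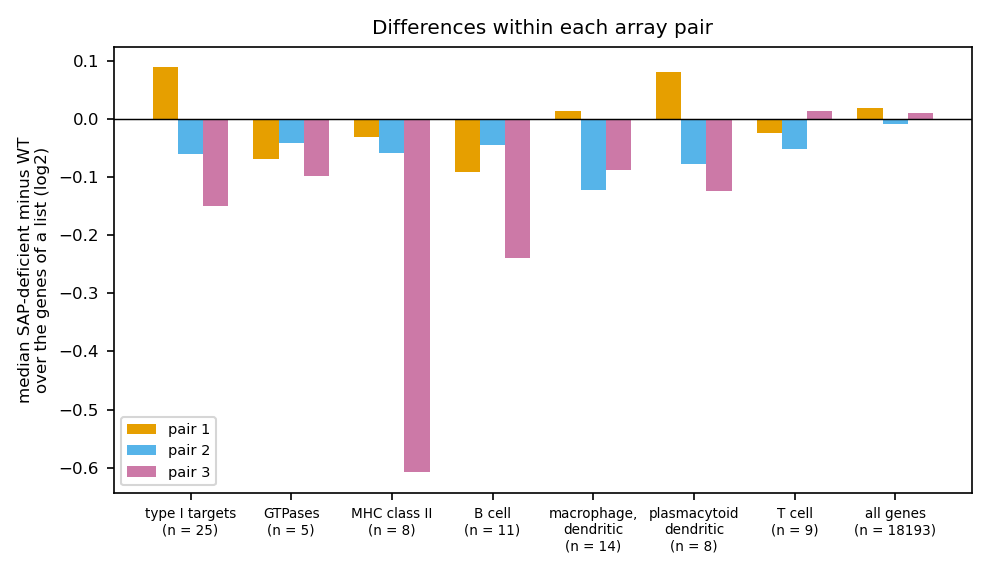
Median difference between the SAP-deficient and the WT array of each pair over the genes of a list, in log2 units, with bars for pairs 1, 2 and 3 and the number of genes under each list. The longest bar is that of the MHC class II genes in pair 3 (-0.61), and the type I targets go from 0.09 in pair 1 to -0.15 in pair 3.

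Most of the 31 genes differed more between pairs than between genotypes. The spread of a gene is given as the SD of its 3 pair means, each the mean of the WT and the SAP-deficient array. It was larger than the size of the genotype difference for 28 of the 31, against 72.5% of all genes. Its median was 0.45 over the 31 genes and 0.12 over all genes. For 19 of the 31 the spread was above the 90th percentile of all genes (0.32), where 10.0% of all genes are by construction. Of the 21 members above the median probe-set level of 5.75, 14 were over the 90th percentile of genes in that range (0.38), and their median spread was 0.48 against 0.14. The order of the arrays by number was the same in both genotypes for 20 of the 31, against 38.5% of all genes.

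**Figure D3:**
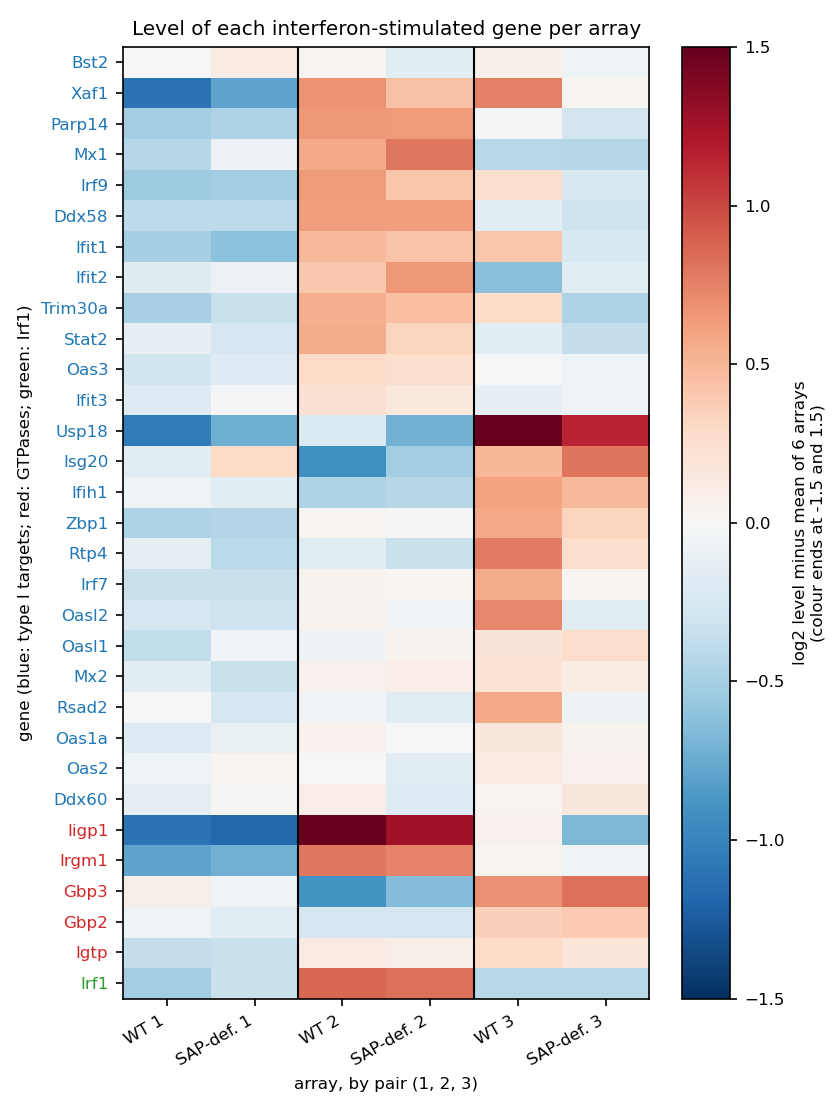
Level of each of the 31 genes on each array minus its mean over the 6 arrays, in log2 units, arrays in columns by pair and genes in rows (blue names, type I targets; red names, GTPases; green name, Irf1). Of the 31 genes, 22 are lowest in pair 1, 14 are highest in pair 2 and 16 in pair 3; values beyond 1.5 share the end colours.

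Pair 1 was the lowest for most of the list: 22 of 31 genes had their lowest pair mean there, against 25.2% of all genes. Isg20, Oas2, Ifih1, Bst2, Gbp2 and Gbp3 were lowest in pair 2, and Ifit2, Mx1 and Stat2 in pair 3. The highest mean fell in pair 2 for 14 genes, against 31.9% of all genes, and in pair 3 for 16, against 37.2%. The 14 genes highest in pair 2 were Irf9, Stat2, Irf1, Ifit1, Ifit2, Ifit3, Mx1, Oas3, Ddx58, Xaf1, Trim30a, Parp14, Irgm1 and Iigp1. The 16 highest in pair 3 were Irf7, Isg20, Mx2, Oas1a, Oas2, Oasl1, Oasl2, Rsad2, Usp18, Ifih1, Rtp4, Zbp1, Ddx60, Gbp2, Gbp3 and Igtp. Bst2 alone was highest in pair 1, with the smallest spread of the 31 (0.06). Of the ISRE-bearing promoters above, Ifit1 and Irgm1 belong to genes highest in pair 2, and Rsad2, Igtp, Gbp2 and Gbp3 to genes highest in pair 3.

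The pairs also differed in sex-linked genes. Xist, the RNA of the inactive X chromosome, was at 12.50 on both arrays of pair 1, at 8.21 and 8.19 in pair 2 and at 5.81 and 6.26 in pair 3, WT first. Eif2s3y, on the Y chromosome, was at 3.54 and 2.91 in pair 1, at 9.96 and 9.98 in pair 2 and at 9.80 and 9.76 in pair 3. The pair with the lowest interferon-stimulated genes was thus the one with the highest Xist and the lowest Eif2s3y, and what else set the pairs apart is not in the labels. Cell markers differed between pairs too. Of the 9 measured T cell markers, 7 were highest in pair 1 and 7 were lowest in pair 2. Among all 18193 genes, 5612 were highest in pair 1 and 7214 lowest in pair 2. With 3 pairs these differences cannot be told apart.

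The GTPases varied more between pairs than the type I targets in value. Their median spread was 0.76 (range 0.30 to 1.32, 5 genes) against 0.45 (range 0.06 to 1.19, 25 genes), and the ranges overlapped. In WT arrays alone the medians were 0.79 and 0.52, in SAP-deficient arrays alone 0.73 and 0.38, and over all genes 0.15 and 0.14. Above the 90th percentile were 4 of 5 GTPases, all but Igtp, and 14 of 25 type I targets. No test was made over genes, which are not replicates, and with probe sets under the median left out the medians were 0.55 for the GTPases, then without Iigp1, and 0.47 for the type I targets. The order of arrays was the same in both genotypes for 5 of 5 GTPases and 15 of 25 type I targets.

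**Figure D4:**
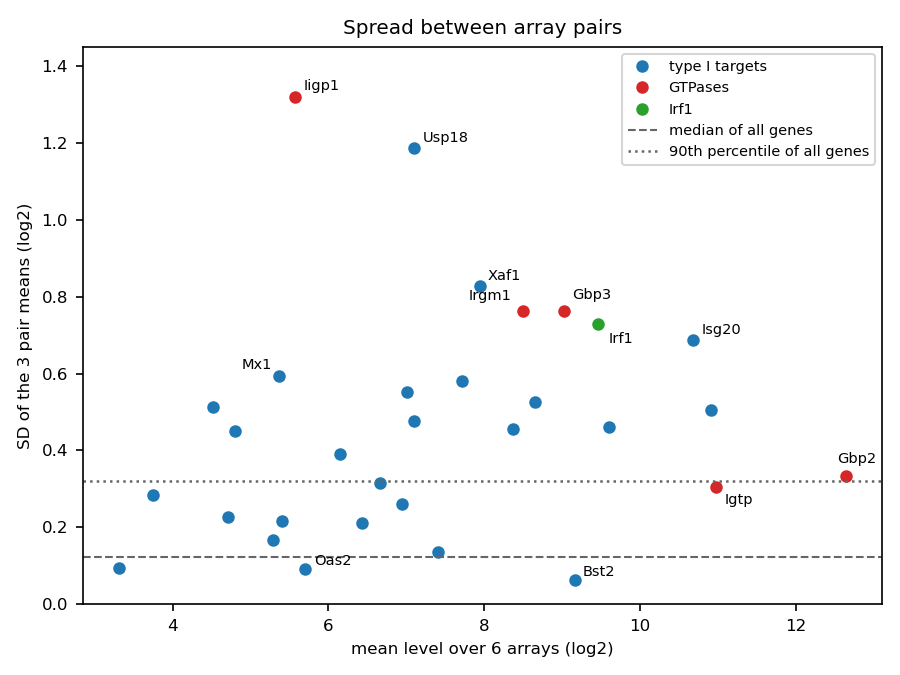
Spread between pairs, the SD of the 3 pair means in log2 units, against the mean level over the 6 arrays for the 31 genes; the dashed and dotted lines are the median (0.12) and the 90th percentile (0.32) of all genes. Iigp1 and Usp18 stand highest, at 1.32 and 1.19, and Bst2 lowest, at 0.06.

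The GTPases did not move as a block between pairs. Iigp1 had the widest spread of the 31, with pair means of 4.43, 7.02 and 5.26, a 6.01-fold step between pairs 1 and 2. Irgm1 ran the same way, at 7.74, 9.26 and 8.48, or 2.88-fold. Gbp3 ran the other way round pair 2, at 9.04, 8.25 and 9.78, with a step of 2.88-fold between pairs 2 and 3, and Gbp2 likewise at 12.53, 12.39 and 13.02. Igtp had the narrowest spread of the 5, at 10.63, 11.08 and 11.22.

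Among the type I targets, Usp18 had the widest spread, with pair means of 6.21, 6.65 and 8.45, a 4.72-fold step between pairs 1 and 3. Xaf1 followed at 6.99, 8.50 and 8.33, or 2.84-fold, and Isg20 at 10.75, 9.97 and 11.34, or 2.58-fold. These 3 had 3 different patterns, as Usp18 was high in pair 3 alone, Xaf1 was low in pair 1 alone and Isg20 was lowest in pair 2. Irf1, at 9.04, 10.31 and 9.06, was high in pair 2 alone, a 2.41-fold step. Irf9, Ifit1, Mx1, Ddx58 and Parp14 also had their highest mean in pair 2, each at over 2-fold of their lowest. Of the genes in this paragraph, Xaf1, Parp14 and Ddx58 had further, dimmer probe sets, which spread less. The SD of the pair means there was 0.06 against 0.83 for Xaf1 and 0.09 against 0.58 for Parp14. For Ddx58 it was 0.06 and 0.30 against 0.55.

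**Figure D5:**
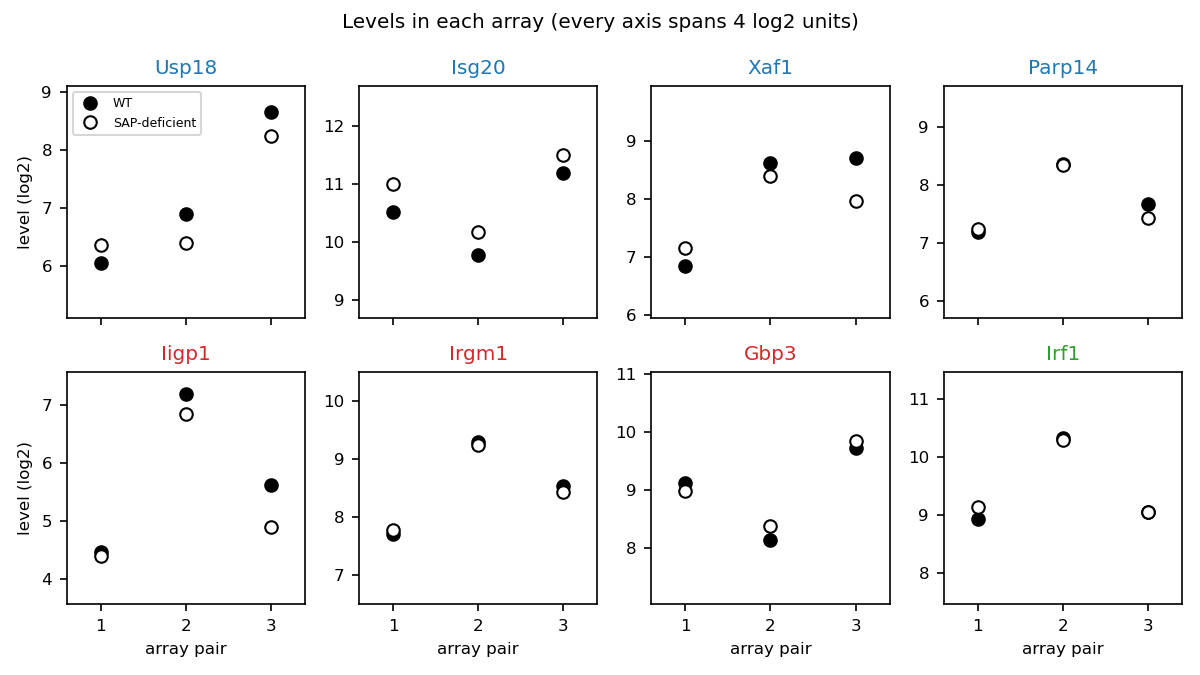
Log2 levels of 8 genes with wide differences between pairs, pair number on the horizontal axis, WT in filled and SAP-deficient in open circles, each panel spanning 4 log2 units. In both genotypes Usp18 is highest in pair 3, Irf1 is highest in pair 2, and Gbp3 and Isg20 are lowest in pair 2.

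Of the other interferon pathway genes, 90 were measured and limma called 0 at an adjusted p under 0.05 (0% of all genes were called). A further list of 55 interferon-stimulated genes had 47 measured, with 19 higher and 28 lower in SAP-deficient cells and a median of -0.03. None of the 47 had an unadjusted p under 0.05 with genotype alone (limma), against 1.31% of all genes. Of these, 13 had a spread above the 90th percentile of all genes. All 5 of the further GTPases measured, of 14 listed, were above it and were lowest in pair 1: Gbp6 (0.86), Irgm2 (0.59), Ifi47 (0.44), Gbp7 (0.44) and Gbp8 (0.39). Gbp6 and Irgm2 were highest in pair 2, and Gbp7, Gbp8 and Ifi47 in pair 3.

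The signalling list had 38 of 47 genes measured, with 21 higher, 17 lower and a median of 0.01. The groups did not overlap for 2 of the 38, against 5.32% of all genes. An unadjusted p under 0.05 with genotype alone was found for 1 (limma), against 1.31% of all genes. The latter was Ifna2, an interferon alpha gene, at 4.65, 4.73 and 4.76 in WT and at 4.43, 4.37 and 4.31 in SAP-deficient arrays. Its groups did not overlap, and the change was -0.35 ± 0.09 (SE; limma, adjusted p = 1) at a level under the median probe set. Ifnb1, the interferon beta gene, was also dim, between 4.79 and 5.06, with a change of -0.04 ± 0.11. Ifng, which encodes interferon gamma, was at 12.90, 11.82 and 12.73 in WT and at 12.64, 12.03 and 12.73 in SAP-deficient arrays, a change of -0.02 ± 0.29. Its lowest pair mean was in pair 2, as for 6 of the 31 members (Isg20, Ifih1, Bst2, Oas2, Gbp2 and Gbp3). Over all 18193 genes, 7214 were lowest in pair 2. Of the other gamma-response members, Irf1, Irgm1 and Iigp1 were highest in pair 2, and Igtp was lowest in pair 1.

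The receptor chains for type I interferon, Ifnar1 (8.60 to 9.27) and Ifnar2 (8.81 to 9.16), differed by 0.005 ± 0.24 and 0.01 ± 0.14 (SE). The gamma receptor chains Ifngr1 and Ifngr2 differed by -0.09 ± 0.13 and 0.02 ± 0.31. Ifngr2, the signalling chain, whose level T cells are known to restrain, was at 6.71, 7.76 and 7.52 in WT and at 6.87, 7.79 and 7.39 in SAP-deficient arrays, lowest in pair 1 in both genotypes and with the widest spread of the signalling list (0.50). The kinases Jak1, Jak2 and Tyk2 differed by 0.15 ± 0.13, 0.07 ± 0.07 and 0.10 ± 0.17. Socs1, an inhibitor of Jak kinases, lay between 7.94 and 8.63 with a change of -0.02 ± 0.21.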

How the data were processed

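RNA (500 ng a sample) of 3 WT and 3 SAP-deficient samples was labelled and hybridised. The authors deposited log2 values made with Affymetrix Expression Console and RMA, per the submitters' processing notes. The sources used here do not give their versions. RMA had already removed background and aligned the arrays, so a shift common to most genes would not show. Of 45101 probe sets, 64 controls were left out. Of the 45037 tested, 34945 were annotated to 1 gene, 932 to several and 9160 to none. limma 3.58.1 (R 4.3.3; lmFit, eBayes with a trend) was fitted to all probe sets with genotype alone. Benjamini-Hochberg adjustment ran over 18193 genes, each read from its highest-mean probe set; 11 of the 31 members had several. The fit was tested on simulated data.

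Labels were numbered in order of deposit. Pairs came from the correlations of deviations given in the report, and each exceeded 0.1; their spread is a description. Intervals are 95%. The number of arrays limits the precision. The members, gene lists, markers and tests were chosen with earlier results of these data known. Named were all 31 members, the targeted gene, Ifnb1, Ifng, their receptors, kinases and Socs1, and from the pathway lists genes at an unadjusted p under 0.05 and the 5 widest spreads of a list. Alternatives were other variance models, filters, scalings, probe-set rules, array weights, the replicate block and leaving out arrays or pairs.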

Additional observations from a re-analysis of the deposited data

How the results depend on the processing

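The count of called members was 0 under every alternative but the replicate block without pair 3, so leaving out single arrays or pairs gave 0 to 1 among the members (Isg20) and 0 to 1 among the pathway genes (Ifitm1). The count at an unadjusted p under 0.05 was 6 with the replicate block, against 6.10% of all genes. It was 0 to 10 with arrays or pairs left out. The share of all genes is not given for those removals, so that range cannot be read as particular to the members. These alternatives for that count and for the pathway genes were chosen after seeing the data. Leaving out single arrays or pairs moved the median change of the 31 genes between -0.234 and 0.0869, of the type I targets between -0.254 and 0.0196 and of the GTPases between -0.234 and 0.109. All 3 lowest values came without WT array 1 and all 3 highest without SAP-deficient array 1, removals that unbalance the pairs. A second quantile normalization gave the GTPases -0.0574. The median spread of the type I targets was 0.315 with all probe sets of a gene averaged and 0.260 to 0.312 over 2 pairs. That of the GTPases was 0.549 when dim probe sets (under the median, or under the 75th percentile) and with them Iigp1 were removed, and 0.520 to 0.559 over 2 pairs. None of the genes whose direction turned was called in any alternative, and the cause of each turn was not tested. The direction turned for Oas3 (-0.0130) under a second quantile normalization. It turned for Rtp4 (0.0234), Ddx60 (-0.0211) and Parp14 (0.0182) with probe sets averaged, and for Gbp2 (0.0171) without _x_at and _s_at probe sets. With array weights it turned for Oas1a (0.0100), Oas2 (0.0127), Oas3 (-0.00787), Usp18 (0.143), Ifih1 (0.0682), Zbp1 (0.00303), Gbp2 (0.0423) and Irf1 (-0.0702). Leaving out arrays or pairs turned the direction of 23 of the 31 genes at least once, over ranges of -0.393 to 0.0518 for Irf7, -0.562 to 0.0238 for Irf9, -0.0200 to 0.186 for Ifit3, -0.169 to 0.511 for Mx1, -0.182 to 0.0638 for Mx2, -0.130 to 0.0530 for Oas1a, -0.111 to 0.0372 for Oas2, -0.137 to 0.155 for Oas3, -0.821 to 0.525 for Usp18, -0.318 to 0.231 for Ifih1, -0.375 to 0.256 for Ddx58, -0.396 to 0.0521 for Stat2, -0.825 to 0.125 for Xaf1, -0.347 to 0.173 for Zbp1, -0.525 to 0.0322 for Trim30a, -0.0862 to 0.146 for Ddx60, -0.405 to 0.239 for Parp14, -0.231 to 0.147 for Gbp2, -0.351 to 0.437 for Gbp3, -0.431 to 0.362 for Irgm1, -0.234 to 0.109 for Igtp, -1.12 to 0.331 for Iigp1 and -0.346 to 0.496 for Irf1. The other 8 (Isg20, Ifit1, Ifit2, Oasl1, Oasl2, Rsad2, Bst2 and Rtp4) kept theirs under those removals.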

Other observations

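In the further list of interferon-stimulated genes, the widest spreads between pairs belonged to Tor3a (0.75), Tdrd7 (0.68), Ifitm1 (0.60), Trim34a (0.57) and Cxcl10 (0.56). Tor3a, an ATPase of the endoplasmic reticulum, was at 6.72, 7.57 and 6.08 in WT and at 6.83, 7.56 and 6.04 in SAP-deficient arrays. Cxcl10, a chemokine for CXCR3-bearing T cells, was at 5.70, 6.42 and 5.47 in WT and at 5.45, 6.53 and 5.44 in SAP-deficient arrays. These 2 genes, Tdrd7 and Trim34a were all highest in pair 2 and lowest in pair 3, an order shown by Ifit2, Mx1 and Stat2 among the 31 members. Ifitm1, a membrane protein that blocks viral entry, was instead highest in pair 1, at 10.29, 8.94 and 9.30 in WT and at 9.59, 8.57 and 9.07 in SAP-deficient arrays. It was lower in SAP-deficient cells in every pair, with a change of -0.44 ± 0.37 (SE; limma, adjusted p = 1), and was called in the replicate block without pair 3 (-0.53 ± 0.08; limma, adjusted p = 0.0120).

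In the signalling list, wide spreads after Ifngr2 belonged to Ifng (0.48), Sting1 (0.44), Ikbke (0.44) and Il10rb (0.41). Ikbke, a kinase that activates interferon regulatory factors, was at 8.48, 9.25 and 8.45 in WT and at 8.77, 9.53 and 8.82 in SAP-deficient arrays. It was higher in each pair, with a change of 0.31 ± 0.27 (SE; limma, adjusted p = 1).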
